A study of Homo sapiens with 8 samples.

Results

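Interferon-stimulated genes were followed in HTETOP cells, which descend from the human fibrosarcoma line HT1080 and carry an engineered gene of topoisomerase II alpha, TOP2A, that tetracycline or its analogue doxycycline shuts off. The set comprised 33 genes, listed by name, out of 19775 genes that had a probe set of their own on the array. A gene was represented by its brightest probe set, the one with the highest mean over the 8 arrays, among the probe sets annotated to that gene alone. By this rule 32 of the 33 genes were measured, through 51 probe sets, and STAT2 was not analysed here. Genes entered the tests when that mean was at or above 4.83, the 40th percentile over the probe sets. Of the 33 genes 28 passed, and HERC5, RSAD2, IRF7 and IFI44L lay below it.

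All arrays carried RNA of this 1 cell line, pooled for each array from 3 passages. There was 1 array of cells given doxycycline at 1 µg/ml for 24 h and 1 of cells given its vehicle, both from passages 15, 16 and 17. Dexrazoxane, a catalytic inhibitor of type II topoisomerases, was given at 100 µM for 24 h on 3 arrays, with 3 arrays of its own vehicle. The switch on TOP2A exists only in this engineered line, and the control cells carry it too. Whether arrays of one group came from separate cultures is not in the labels, so the p-values measure the spread between arrays, which may be technical.

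Interferons are secreted proteins that cells release on sensing viral nucleic acid or displaced DNA. Their receptors signal through JAK kinases to a complex that contains STAT2 and IRF9 and binds the interferon-stimulated response element (ISRE) in the promoters of target genes. The targets include nucleic acid sensors, enzymes that degrade or modify viral RNA, membrane proteins that block viral entry or release, and factors that feed back on the pathway.

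The letters of the ISRE core were common in the promoters of the set. RefSeq promoter windows of assembly GRCh38.p14, 300 bases each with 250 before and 50 after a gene start, were found for 26 of the 33 genes. The letters searched were GAAA, any 2 bases and GAAA again, on both strands, with overlapping matches allowed. They were present in 19 of the 26 (73.1%), against 4.38% of all 27305 genes with such a window. A match describes letters and is not a measured binding site. The stretches below are shown because their genes differed with dexrazoxane or between numbered arrays, as described further on. TAP1 is no member of the set and is not counted in the 26. It belongs to a wider list of interferon pathway genes, where 24 of 58 with a window (41.4%) held the letters. Capitals mark the letters on either strand, overlapping matches run together, and 20 bases are given on each side, read 5′ to 3′ on the strand of the gene.
ISG15: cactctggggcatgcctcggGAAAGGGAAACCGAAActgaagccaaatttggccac
TAP1: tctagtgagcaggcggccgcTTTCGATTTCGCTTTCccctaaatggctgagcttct
BST2: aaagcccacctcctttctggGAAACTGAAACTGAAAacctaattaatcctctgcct
IFI27: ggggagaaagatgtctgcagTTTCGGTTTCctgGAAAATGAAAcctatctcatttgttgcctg
IFITM3: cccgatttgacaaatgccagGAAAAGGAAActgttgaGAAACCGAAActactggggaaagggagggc

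These stretches lie at chr1:1013364-1013419 on the plus strand for ISG15, chr6:32853803-32853858 on the minus strand for TAP1, chr19:17405725-17405780 on the minus strand for BST2, chr14:94110608-94110670 on the plus strand for IFI27 and chr11:320866-320932 on the minus strand for IFITM3. In ISG15, BST2 and TAP1 a pair of matches overlapped into 1 run of 16 bases. PARP9 and DTX3L, which are transcribed away from each other, shared a single match at chr3:122564332-122564341, read as GAAACTGAAA on the DTX3L strand.

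The target of the design was checked first. TOP2A stood at 11.98 with the doxycycline vehicle and 6.02 with doxycycline. It stood at 12.41, 12.55 and 12.40 on the dexrazoxane vehicle arrays and at 11.20, 10.92 and 10.52 on the dexrazoxane arrays, a difference of -1.57 ± 0.12 on the log2 scale, where the error of a difference is here and below the SE of the paired fit (limma adjusted p = 0.00426 paired and 0.0949 without the pairing). Median values were 4.81 and 4.82 on the doxycycline arrays and 5.49 to 5.57 on the dexrazoxane set of 6, so levels were compared only within each set. Dexrazoxane and vehicle arrays of the same number deviated together from their group means over all tested genes (Pearson 0.823, 0.574 and 0.716 for numbers 1, 2 and 3). Arrays of unequal number gave -0.629 to 0.181. Arrays of the same number were treated as pairs in a fit with the number as a block, beside the fit without it. All 8 mesenchymal markers passed the filter, with VIM at a mean of 13.67. Below it lay 5 of 6 epithelial and 3 of 4 measured leukocyte markers, EPCAM and PTPRC among them. CLDN4 and CD3E passed, at means of 5.82 and 6.72. So did 3 of 5 endothelial markers, PECAM1, TEK and VWF, at means of 6.31, 6.08 and 5.30. Dexrazoxane called 0 of these markers in either fit.

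With dexrazoxane, ISG15 was the one interferon-stimulated gene that rose in the paired fit. ISG15 encodes a ubiquitin-like protein that is joined to other proteins and is also secreted. Its log2 values were 8.31, 8.70 and 8.96 with vehicle and 9.08, 9.22 and 9.60 with dexrazoxane. All 3 dexrazoxane arrays lay above all 3 vehicle arrays. The means were 8.66 ± 0.328 (SD, n = 3) and 9.30 ± 0.273 (SD, n = 3), a difference of 0.64 ± 0.080 (SE, paired fit) or 1.56-fold, and the 3 pairs differed by 0.77, 0.52 and 0.64. The limma adjusted p was 0.0105 with the block and 0.941 without it. Without pair 1 the difference was 0.58 and the limma adjusted p 0.0523. ISG15 has 1 probe set, of a kind that can detect more than one transcript. In RNA of whole cultures, more cells of a type and more RNA per cell cannot be told apart.

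Counted over the 28 tested members, the paired limma fit called 1 higher (3.57%) and 0 lower, against 2.42% of all 14731 genes called higher and 2.44% called lower. The limma fit without the block called 0 members and 0.00% of all genes in either direction; at an unadjusted p under 0.05 it held 1 member, ISG15, and 5.19% of all genes. Dexrazoxane arrays all lay above vehicle arrays for 3 members (10.7%), ISG15, PARP9 and DTX3L, against 6.53% of all genes, and all below for 0, against 3.62%. Members were higher with dexrazoxane in 3 of 3 pairs in 10 cases (35.7%, against 25.7% of all genes) and lower in 3 cases (10.7%, against 19.4%). The mean difference was above 0 for 20 members (71.4%), against 54.6% of all genes. Its median was 0.11 over the members and 0.016 over all tested genes.

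**Figure D1:**
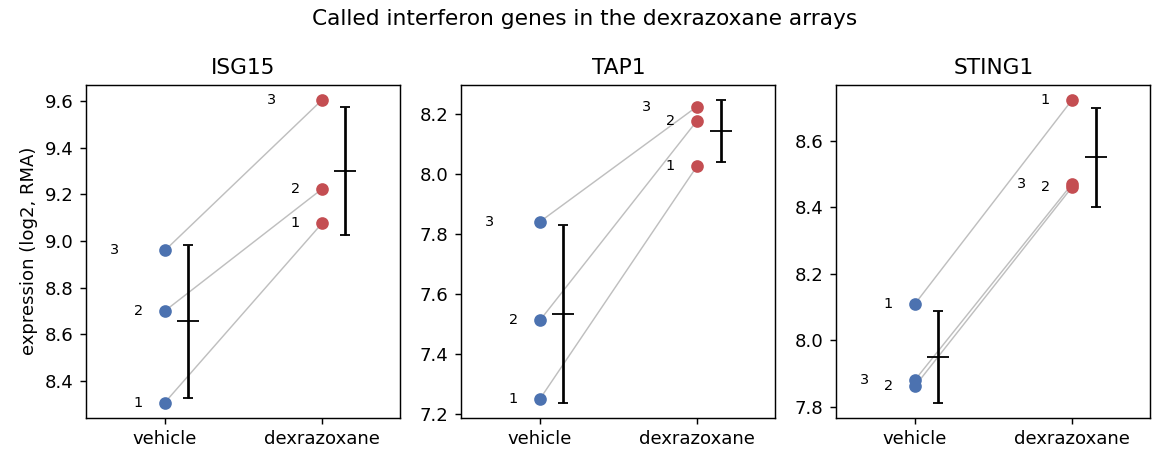
Expression (log2, RMA) of ISG15, TAP1 and STING1 on the 3 vehicle and 3 dexrazoxane arrays. Points are arrays with their numbers, grey lines join arrays of the same number, and bars give the mean and SD; each dexrazoxane array lies above every vehicle array, and the 3 pairs of ISG15 differ by 0.77, 0.52 and 0.64.

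Of the other genes of ISG15 conjugation, USP18 encodes the protease that removes ISG15 from its targets and dampens receptor signalling. It stood at 5.93, 6.21 and 6.41 with vehicle and 5.86, 6.31 and 6.35 with dexrazoxane. The groups overlapped, and the difference was -0.0089 ± 0.077 (SE). HERC5, the main ligase for ISG15, was below the filter, with means of 4.63 and 4.57. UBE2L6, the conjugating enzyme for ISG15, is no member of the set and was picked after its values were seen. Its difference of 0.22 ± 0.078 (SE) had a limma paired adjusted p of 0.150.

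Among the factors that carry or follow the interferon signal, IRF9, the DNA-binding subunit of the complex with STAT2, had the next largest positive difference of the set. It stood at 7.44, 8.01 and 8.21 with vehicle and at 7.97, 8.17 and 8.58 with dexrazoxane. The groups overlapped, while all pairs differed in the same direction, by 0.53, 0.16 and 0.37. The mean difference was 0.35 ± 0.090 (SE), with a limma paired adjusted p of 0.0650, which missed the bound. In limma it passed with the filter at the 60th percentile (adjusted p = 0.0423), with a trended, robust variance (0.0119) and without pair 2 (0.0179). IRF1, a factor induced early by interferons, differed by -0.019 ± 0.083. IRF7, which amplifies interferon production, was below the filter, with means of 4.21 and 4.45.

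The membrane proteins that act against virus particles did not pass the test, though 3 of the 4 were higher in all pairs. BST2, which tethers budding virions, stood at 6.06, 6.35 and 7.34 with vehicle and 6.23, 6.66 and 7.63 with dexrazoxane. The pairs differed by 0.17, 0.31 and 0.30, while the vehicle arrays alone spanned 1.27. Its mean difference was 0.26 ± 0.075 (SE, limma paired adjusted p = 0.0916). IFITM2 and IFITM3, which hinder fusion of viral and endosomal membranes, differed by 0.25 ± 0.075 and 0.22 ± 0.072 (limma paired adjusted p of 0.102 and 0.120). Both passed with the trended, robust variance in limma, at adjusted p of 0.00795 and 0.00680. IFITM1 differed by 0.014 ± 0.085, with pairs on either side of 0. The IFITM genes are close paralogs, and probe sets of IFITM2 and IFITM3 are of a class designed across similar sequences, so their signals may not be separate.

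The RNA-binding and RNA-cutting families held no call. IFIT1, which binds viral RNA that lacks a host cap mark, stood at 6.25, 6.82 and 6.82 with vehicle and 6.61, 7.06 and 6.75 with dexrazoxane. Its groups overlapped, and its pairs differed by 0.36, 0.24 and -0.067. The differences of IFIT3, IFIT2 and IFIT5 were 0.13 ± 0.11, 0.0012 ± 0.081 and -0.022 ± 0.084. A second IFIT2 probe set, also above the filter, differed by 0.25 (limma paired adjusted p = 0.354 with every probe set tested). OAS1, OAS2 and OAS3 make the oligoadenylate that switches on the nuclease RNase L, and their differences were 0.21 ± 0.097, -0.061 ± 0.073 and 0.14 ± 0.093. OASL, which lacks that activity and enhances RIGI signalling, differed by 0.11 ± 0.073. The limma paired adjusted p of these 8 genes ran from 0.238 for OAS1 to 0.996 for IFIT2.

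The sensors and direct antiviral effectors gave no call either. IFIH1, a sensor of long double-stranded RNA, stood at 5.69, 6.17 and 6.31 with vehicle and 6.16, 6.06 and 6.70 with dexrazoxane, and its pairs differed by 0.47, -0.11 and 0.39. Pair 2 stood against the others. Without it the difference was 0.43 with a limma adjusted p of 0.0191, against 0.250 with all pairs. RIGI, a sensor of RNA ends, and IFI16, a DNA sensor, differed by -0.019 ± 0.078 and 0.037 ± 0.082. The dynamin-like GTPase genes MX1 and MX2 differed by 0.023 ± 0.072 and -0.033 ± 0.097, and ISG20, an exonuclease gene, by -0.10 ± 0.075. RSAD2, which makes a chain-terminating nucleotide, was below the filter, with means of 4.92 and 4.80.

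The genes named IFI did not share a direction. IFI6, which encodes a small membrane protein of mitochondria, was higher in all pairs, by 0.27, 0.24 and 0.14 (0.22 ± 0.074, limma paired adjusted p = 0.135). IFI44 stood at 6.44, 6.75 and 6.74 with vehicle and 5.97, 6.32 and 6.66 with dexrazoxane. The groups overlapped, and its pairs differed by -0.47, -0.44 and -0.072. The difference of -0.33 ± 0.096 had a limma paired adjusted p of 0.0929. In limma the call was gained without pair 3 (adjusted p = 0.0431) and with the trended, robust variance (0.0468), and a second probe set, below the filter, differed by 0.11. IFI27 and IFI35 differed by 0.14 ± 0.089 and 0.018 ± 0.073, and IFI44L was below the filter.

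PARP9 and DTX3L encode an ADP-ribosyltransferase and its partner ubiquitin ligase, which act as a complex in interferon signalling and DNA repair. PARP9 stood at 7.14, 7.17 and 7.10 with vehicle and at 7.35, 7.35 and 7.32 with dexrazoxane. DTX3L stood at 9.01, 9.04 and 9.005 with vehicle and at 9.18, 9.15 and 9.07 with dexrazoxane. For both genes every dexrazoxane array lay above every vehicle array, and the arrays of a group lay close together, with SDs of 0.0173 to 0.0548. The differences were 0.20 ± 0.072 and 0.12 ± 0.073, with limma paired adjusted p of 0.145 and 0.384, so neither passed.

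**Figure D2:**
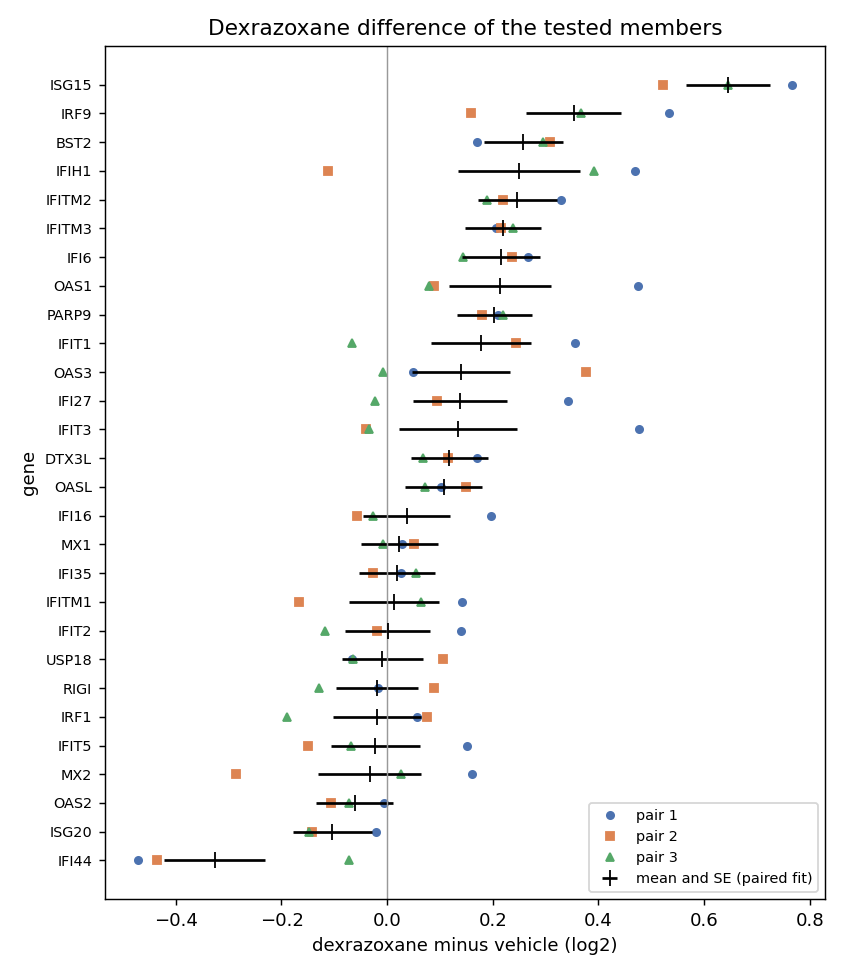
Difference between dexrazoxane and vehicle (log2) for the 28 tested members, ordered by the mean. Coloured symbols give the 3 pairs of equally numbered arrays, and the black mark with its line gives the mean and SE of the paired fit; ISG15 lies highest at 0.64, IRF9 follows at 0.35, and IFI44 lies lowest at -0.33.

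The interferon system around these genes was examined through a list of 74 ligands, receptors, kinases, upstream sensors, inhibitors and further targets, of which 56 were tested. The paired limma fit called 2 of the 56 higher (3.57%), STING1 and TAP1, and 0 lower, against 2.42% and 2.44% of all genes. The limma fit without the block called 0, with 3 (5.36%) at an unadjusted p under 0.05, against 5.19% of all genes. These shares lie near those over all genes. The median difference was 0.072 over the list and 0.016 over all genes.

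STING1 encodes the endoplasmic reticulum adaptor that signals when cytosolic DNA is sensed. It stood at 8.11, 7.86 and 7.88 with vehicle and 8.72, 8.46 and 8.47 with dexrazoxane. All dexrazoxane arrays lay above all vehicle arrays, and the 3 pairs differed by 0.61, 0.60 and 0.59. The difference was 0.60 ± 0.072 (SE) or 1.52-fold, and limma gave adjusted p of 0.00943 with the block and 0.718 without it. Leaving out pair 1 gave a limma adjusted p of 0.0506. A second probe set of STING1 differed by 0.74.

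TAP1 encodes a subunit of the transporter that loads peptides onto MHC class I. It stood at 7.25, 7.51 and 7.84 with vehicle and 8.02, 8.18 and 8.22 with dexrazoxane. The groups again did not overlap, and the difference was 0.61 ± 0.092 or 1.52-fold. In limma the adjusted p was 0.0162 with the block, 0.830 without it, 0.0802 without pair 1 and 0.0524 with every probe set tested on its own. Other genes of class I presentation, picked after their values were seen, differed by -0.012 (TAP2), -0.0079 (PSMB8), 0.059 (PSMB9) and 0.055 (B2M).

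The remaining steps of the pathway held no call in the paired fit or in the fit without the block. MAVS, the mitochondrial adaptor of the RNA sensors, had no overlap between groups and differed by 0.27 ± 0.076 (limma paired adjusted p = 0.0870). Other probe sets of MAVS differed by 0.25, 0.072 and 0.021. With averaged probe sets its difference was 0.15 (limma paired adjusted p = 0.234). MAVS passed in limma with the trended, robust variance (adjusted p = 0.0406). IRF3, the factor that switches on interferon genes, gave 0.25 ± 0.092 (limma paired adjusted p = 0.157). Of the 9 ligand genes with a probe set 8 were below the filter. IFNB1 lay between 3.45 and 3.71 on the 6 arrays, and IFNL1, the one ligand that passed, at 4.94, 5.04 and 5.25 with vehicle and 4.91, 5.14 and 4.87 with dexrazoxane. The receptor genes IFNAR1, IFNAR2, IFNGR1, IFNGR2, IFNLR1 and IL10RB all passed the filter, and their differences lay between -0.17 for IFNLR1 and 0.13 for IL10RB; the kinase gene TYK2 gave 0.11. Among further targets PML differed by 0.25 and GBP1 by -0.37, and among inhibitors PTPN2 by -0.20, PTPN6 by 0.14 and PTPN11 by -0.13. The 10 probe sets of PML ranged from -0.021 to 0.25. GBP1 had a limma paired adjusted p of 0.110 and passed as lower with the trended, robust variance (0.0253).

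Members also differed between arrays of different number. That number is the one in an array's label, and no source used here says what it stands for; the comparison was added after the values were seen. IFI27 stood at 5.95, 6.997 and 7.53 on vehicle arrays 1, 2 and 3 and at 6.29, 7.09 and 7.51 on dexrazoxane arrays 1, 2 and 3. IFITM1 stood at 6.51, 7.46 and 7.92 and at 6.65, 7.29 and 7.99 on the same arrays. In both treatments the array numbered 1 was lowest and the array numbered 3 highest.

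Averaged over the treatments, array 3 exceeded array 1 by 1.40 for IFI27, 1.38 for IFITM1, 1.34 for BST2, 1.14 for IFI6, 0.92 for ISG20 and 0.83 for OASL on the log2 scale. The limma F test for the number, with treatment in the model, gave adjusted p from 0.000476 for BST2 to 0.00150 for OASL over these 6 genes. The test called 16 of the 28 members (57.1%), against 38.7% of all genes. Array 3 lay above array 1 in both treatments for 19 members, against 38.0% of all genes, and array 1 was lowest and array 3 highest in both for 12 (42.9%), against 7.89%. The median difference between arrays 3 and 1 was 0.42 over the members and -0.0064 over all genes. It exceeded the difference with dexrazoxane in size for 22 of the 28 members (78.6%), a share near the 70.3% of all genes. All 16 members called had array 3 above array 1 on average. The matching share among all genes called by number was not counted, so this is no result about the members.

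**Figure D3:**
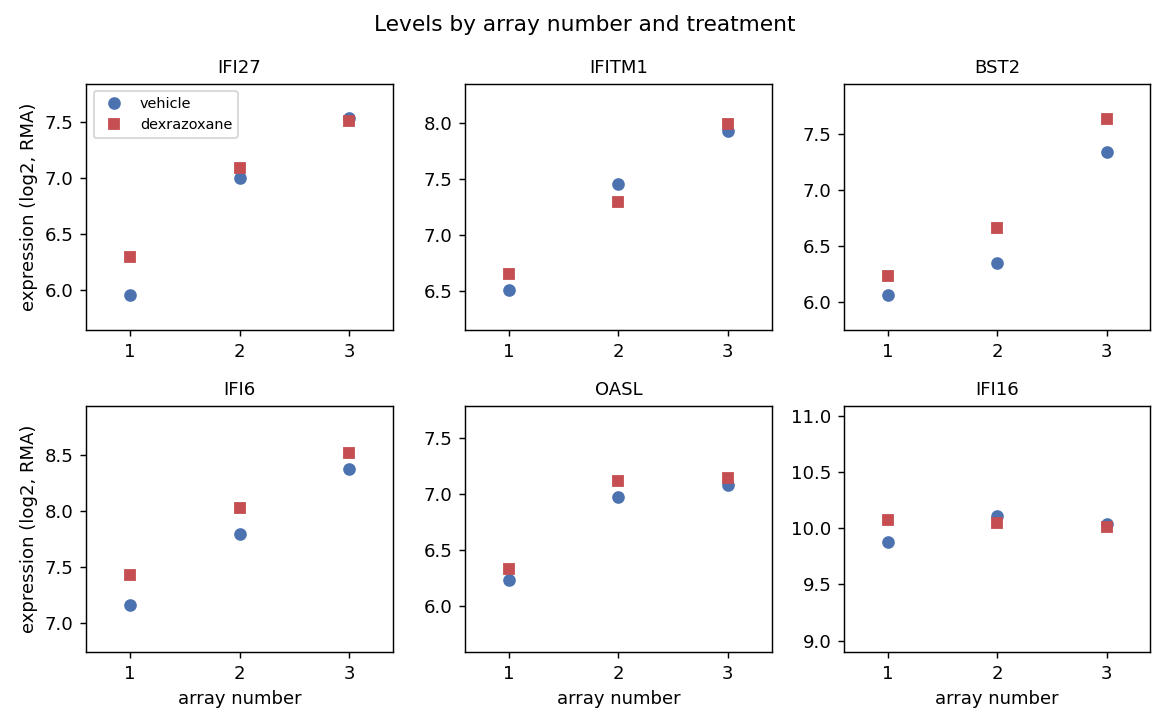
Expression (log2, RMA) of 6 members by array number, with vehicle as circles and dexrazoxane as squares; the panels differ in level and span the same height. IFI27, IFITM1, BST2, IFI6 and OASL are lowest on the arrays numbered 1 in both treatments, and IFI16 lies between 9.88 and 10.11.

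The other 12 tested members were not called by number. Among these, RIGI, IFI16, PARP9, DTX3L, IFI35 and OAS3 differed between arrays 3 and 1 by -0.091 for OAS3 up to 0.11 for IFI35; IFI35 had array 1 lowest and array 3 highest in both treatments, within a narrow range. IFIT5 gave -0.28 and was not called (limma adjusted p = 0.0764). For some genes the probe sets disagreed. A dimmer probe set of IFI16 differed by 0.98 between arrays 3 and 1, where the brightest gave 0.042. Dimmer probe sets of RIGI, also above the filter, gave 0.27 and 0.23, where the brightest gave 0.0049. The second probe set of IFIT3 gave 0.039 where the brightest gave 0.57. Members with the ISRE letters in their promoter window numbered 16 among those tested, and 11 of these were called by number, with a median difference of 0.57. Of the 6 tested members whose window lacked the letters 1 was called, with a median of 0.096. Another 6 tested members had no window, of which 4 were called, with a median of 0.41, and 38.7% of all genes were called. No difference between these groups was tested.

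In the wider list the number called 31 of the 56 tested genes (55.4%), against 38.7% of all genes, 15 with array 3 above array 1 and 16 below, and the median difference was 0.055. The ends of this list, picked after their values were seen, were AIM2, a DNA sensor, at 1.26, UBE2L6 at 1.24, CMPK2, a mitochondrial nucleotide kinase, at -0.75 and SOCS3, an inhibitor of cytokine signalling, at -0.84. The ligand gene IFNE, below the filter, stood at 5.35, 4.57 and 4.25 on vehicle arrays 1, 2 and 3. On dexrazoxane arrays 1, 2 and 3 IFNE stood at 5.34, 4.45 and 4.33. The other measured ligand genes did not share this fall. Their differences between arrays 3 and 1 ran from -0.12 for IFNK to 0.45 for IFNL2, with 0.14 for IFNL1, which passed the filter. Of the cell type markers tested, the number called 2 of 8 mesenchymal, the 1 epithelial (CLDN4), the 1 leukocyte (CD3E) and 2 of 3 endothelial genes. CD3E stood at 6.81, 7.12 and 7.10 with vehicle and 6.64, 6.95 and 6.97 with dexrazoxane. PTPRC, which defines leukocytes, was below the filter, at 3.85, 3.84 and 3.84 with vehicle and 3.73, 3.98 and 3.83 with dexrazoxane. CD14, also below it, stood at 4.13, 5.12 and 4.50 with vehicle and 4.39, 5.17 and 4.87 with dexrazoxane. SPI1, below it too, differed between arrays 3 and 1 by -0.097. The median level of the mesenchymal list lay between 9.71 and 9.76 on the vehicle arrays and between 9.60 and 9.74 on the dexrazoxane arrays. The 2 called genes of that list, FN1 and COL5A1, differed between arrays 3 and 1 by -0.58 and -0.21. The part of other cells in the pattern was not tested.

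**Figure D4:**
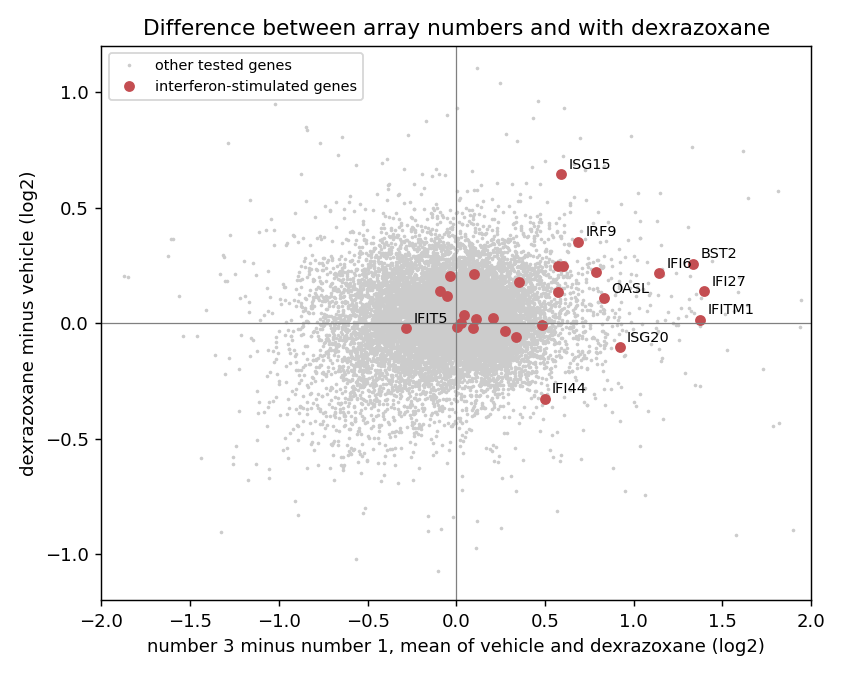
For each tested gene, the difference between arrays numbered 3 and 1, averaged over vehicle and dexrazoxane (horizontal, log2), against the difference between dexrazoxane and vehicle (vertical, log2). Red points are the 28 members and grey points the other genes, of which 15 lie outside the axes; ISG15 lies highest among the members, and IFI27, IFITM1, BST2 and IFI6 lie farthest to the right.

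Silencing of TOP2A with doxycycline was compared on 1 array against 1, so no difference has an error or a test, and a gene was counted when it differed by at least 1.5-fold. At this bound 0 of the 28 members were higher and 0 were lower, against 0.0272% and 0.102% of all genes. Of the members 14 lay above 0, 13 below and IRF1 had identical values, while 54.4% of all genes lay above 0. Identical values on the 2 arrays were found for 9.62% of all probe sets. The median difference was 0.0085 over the members and 0.018 over all genes, and the SD over all genes was 0.146.

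By its brightest probe set IFIH1 had the largest positive difference of the set, with 4.94 on its vehicle array and 5.21 with doxycycline. IFI27 stood at 5.40 and 5.65, IFI6 at 6.72 and 6.94, and ISG15 at 8.04 and 8.24. These 4 genes differed by 0.27, 0.24, 0.22 and 0.20. At the other end USP18 stood at 5.45 and 5.18 and IFIT2 at 5.21 and 4.96, differences of -0.27 and -0.24.

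Of the 15 members with several probe sets 11 had probe sets of opposite sign in this pair, and 6 had them with dexrazoxane. For IFIH1 a dim probe set, below the filter, differed by -0.49, where the brightest gave 0.27. A second IFIT2 probe set differed by 0.46, where the brightest gave -0.24. The 3 probe sets of RIGI gave -0.15, 0.14 and 0.067, and those of OAS1 gave -0.073 and 0.13. IRF9, BST2 and IFITM3 differed by 0.12, 0.15 and 0.075, and PARP9 by -0.15. STING1 and TAP1, called with dexrazoxane, differed by 0.19 and 0.12. Of the 56 tested genes of their list 0 reached 1.5-fold, and DHX58, a regulator of RIGI picked after its value was seen, had the largest difference among them, 0.39.

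**Figure D5:**
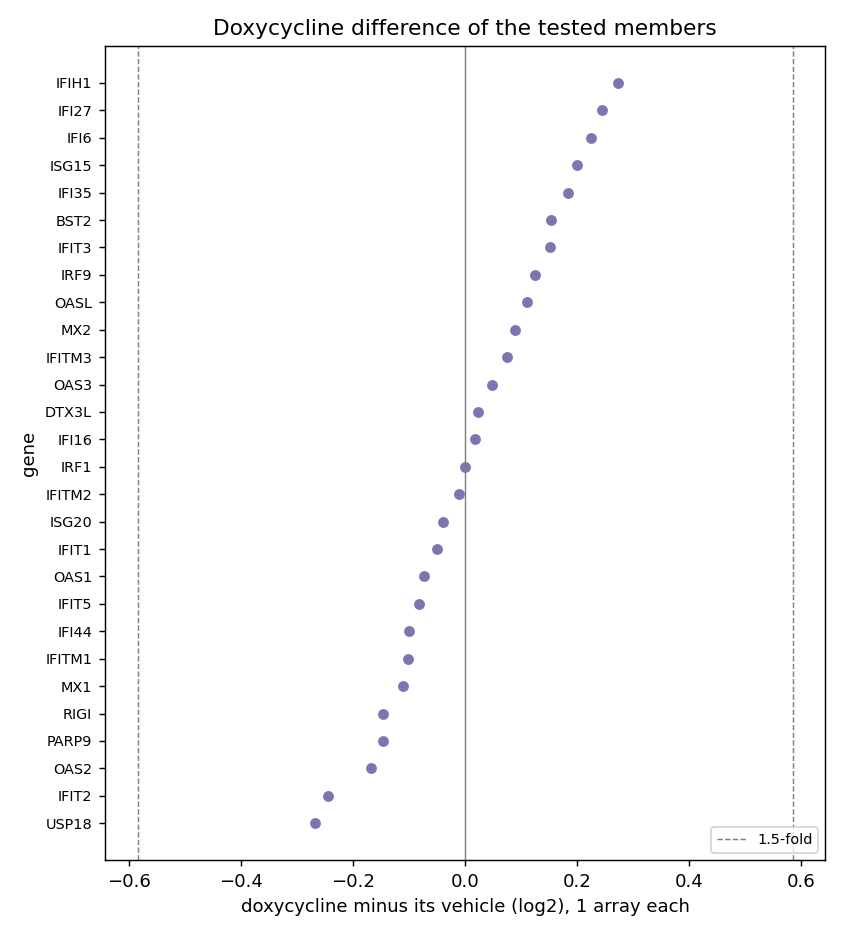
Difference between the doxycycline array and its vehicle array (log2) for the 28 tested members, ordered by size, with dashed lines at 1.5-fold. All members lie between -0.27 for USP18 and 0.27 for IFIH1.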

How the data were processed

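The authors deposited log2 expression values for 54675 probe sets, and the submitters' processing notes name RMA; no source used here says whether all 8 arrays went through it in 1 run. RMA makes the distributions of arrays alike, so a shift shared by all genes would not be seen. The platform annotation named 41097 probe sets by 1 symbol, 1801 by several and 11777 by none; symbols were updated through Entrez identifiers and a RefSeq table of GRCh38.p14. A probe set shared by IFITM1 and IFITM2 and another shared by IRF9 and RNF31 were left out.

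limma 3.58.1 (R 4.3.3; lmFit, eBayes, two-sided) compared dexrazoxane with vehicle over 14731 genes, with Benjamini-Hochberg adjustment and a bound of 0.05. It was run without a block and, since arrays of equal number deviated together (each correlation over 0.1), with the replicate number as a block. Vehicle array 2 and dexrazoxane array 3 also passed that bound, at 0.181. The fit without the block was planned as the main fit, and the pairing rests on correlations in the same data. In simulated data for this comparison (14731 genes), arrays of equal number were built from the same pair mean. An advantage of the block was thus fixed in advance, and the simulation cannot decide between the fits. A difference of 0.5 on the log2 scale was recovered in 36.1% of genes with the block and 0.896% without it. A difference of 1 was recovered in 80.9% and 58.2%. False calls averaged 2.6 with the block and 0 without it. The number of arrays limits precision.

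Genes named were TOP2A, the 33 members, ligands, receptors, genes of the wider list that were called, and up to 3 genes of each of its roles with the smallest p without the block; others are said to be picked later. Members and lists were chosen with earlier results of these data known. Other filters, probe set choices, normalizations and variance models were tried, and each array or pair was left out.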

Additional observations from a re-analysis of the deposited data

How the results depend on the processing

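With the replicate block the calls went from 0 to 1 for interferon-stimulated genes, from 0 to 2 for the wider list (higher), and from 0 to 357 higher and 360 lower among all genes. Varying that fit, members called higher numbered 1 with no filter, averaged probe sets, centred arrays or every probe set, 2 at the 60th percentile and 4 under trended, robust variance, which also called 1 lower; 0 were called from specific probe sets, where ISG15 has none. The wider list gave 2 in these, except 1 from specific or every probe set, and 4 higher and 1 lower under trended, robust variance. All genes called higher and lower were 195 and 230 with no filter, 553 and 512 at the 60th percentile, 348 and 339 for averaged probe sets, 186 and 232 for specific ones, 366 and 371 for centred arrays, 992 and 852 under trended, robust variance, and 62 and 71 for every probe set, an alternative chosen after seeing the data. Without the block 1 lower gene was called from specific probe sets and 1 under trended, robust variance. Leaving out an array or a pair, over both fits, gave 0 to 3 members higher, 0 to 1 lower, 0 to 2 of the wider list higher, and 0 to 416 higher and 0 to 414 lower genes. Filters alter how many genes are tested; otherwise the cause was not tested.

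In the doxycycline pair genes at least 1.5-fold higher and lower went from 4 and 15 to 14 and 28 with no filter and 1 and 1 at the 60th percentile; 2 were higher for averaged probe sets and 6 lower after quantile normalization of the 8 arrays. Members past 1.5-fold stayed at 0. The array number called 11 to 17 members under its alternatives, and 4202 to 5956 of all genes. The lowest member count came from specific probe sets, where some members have none, so this range is no result about the members.

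Of 995 values of 45 named genes under alternatives 76 changed sign, 0 of them with a call on either side, and 35 gained a call. With averaged probe sets, with or without the block, RIGI turned to 0.024, IFI16 to -0.015, IRF1 to 0.047 and IFNAR1 to 0.031. RIGI turned to 0.026 with specific probe sets, and IFIT2 to -0.0019 with centred arrays and -0.0044 after quantile normalization. With an array or pair left out the lowest and highest differences were -0.14 and 0.63 for BST2, -0.043 and 0.087 for IFI16, -0.30 and 0.49 for IFI27, -0.018 and 0.045 for IFI35, -0.090 and 0.51 for IFI6, -0.012 and 0.30 for IFIT1, -0.082 and 0.089 for IFIT2, -0.050 and 0.40 for IFIT3, -0.16 and 0.060 for IFIT5, -0.38 and 0.34 for IFITM1, -0.0044 and 0.45 for IFITM3, -0.24 and 0.049 for IFNAR1, -0.13 and 0.046 for IFNGR2, -0.21 and 0.033 for IFNL1, -0.039 and 0.29 for IL10RB, -0.095 and 0.066 for IRF1, -0.39 and 0.14 for ISG20, -0.038 and 0.10 for MX1, -0.16 and 0.093 for MX2, -0.23 and 0.084 for OAS2, -0.16 and 0.37 for OASL, -0.00093 and 0.29 for PTPN6, -0.073 and 0.036 for RIGI, -0.017 and 0.21 for TYK2, -0.14 and 0.15 for USP18.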
